A study of Homo sapiens with 24 samples.

Results

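The transcripts described here encode 8 adhesion molecules of the cell surface, ICAM1, ICAM2, ICAM3, VCAM1, CDH1 (E-cadherin), CD44, CD58 and PECAM1, in the Hodgkin lymphoma cell line L1236. They were taken as the transcript clusters, the sets of array probes that stand for 1 locus, whose only annotated gene symbol was 1 of these 8. All 8 genes were measured, by 9 of the 19460 clusters with a single symbol, because PECAM1 has a pair of clusters. The table held 33297 clusters in all. L1236 is an established line of B cell origin that was grown from a Hodgkin lymphoma, so every value below describes this 1 line.

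The series holds 24 arrays from 2 experiments, each with 6 knockdown (KD) arrays and 6 arrays of cells that received non-targeting siRNA. In p50/RelA KD cells, siRNA against NFKB1 (1 µM, 3 days) was combined with siRNA against RELA (500 nM, 2 days). In p52/RelB KD cells, siRNA against NFKB2 (500 nM, 2 days) was combined with siRNA against RELB (1 µM, 3 days). Controls were made within each experiment (control 1 and control 2), all cells were harvested 1 day after siRNA ended, and each arm held 2 siRNA sequences in each of 3 biological replicates. The 2 control sequences are non-targeting, so a difference given for a sequence pairs KD and control by number alone. The sequences that the study lists for the 4 targets are shown because the effects are given for each sequence below. They run 5′ to 3′, and the list does not number them, so which is sequence 1 and which is sequence 2 is not known here.
NFKB1: ccaaaguauaaagauauua
NFKB1: ggcucauguuuacagcuuu
RELA: cuuccaaguuccuauagaa
RELA: ggauugaggagaaacguaa
NFKB2: ucauugagcagauagucua
NFKB2: cugucaagaucuguaacua
RELB: guaggauucggaaaagauu
RELB: uggagaucaucgacgagua

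ICAM1, ICAM2, ICAM3 and VCAM1 belong to the immunoglobulin superfamily and bind integrins on neighbouring cells. ICAM molecules bind LFA-1 and related integrins on leukocytes, and VCAM1 binds integrins that contain the alpha 4 chain. ICAM1 and VCAM1 are textbook NF-κB target genes in endothelial cells, where inflammatory cytokines induce them. E-cadherin joins epithelial cells through calcium-dependent contacts and is tied to actin by catenins, CD44 binds hyaluronan, CD58 binds CD2 on T cells, and PECAM1 binds itself at contacts between endothelial cells and leukocytes. NF-κB acts as dimers of 5 related subunits, with p50/RelA the classical dimer of canonical signaling and p52/RelB that of non-canonical signaling.

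The RefSeq promoter table (assembly GRCh38.p14) held windows for 5 of the 8 genes, and none for CDH1, ICAM2 and PECAM1. Each window, 250 bases before to 50 after the transcription start, was searched on both strands for the 10-base κB consensus and for the shorter palindromic GGAANTTCC. The 250 bases before the start of ICAM1 (chr19:10270870-10271119, plus strand) and of VCAM1 (chr1:100719492-100719741, plus strand) are shown because each holds a match, in capitals. The letters do not show whether any factor is bound there in L1236 cells.
ICAM1: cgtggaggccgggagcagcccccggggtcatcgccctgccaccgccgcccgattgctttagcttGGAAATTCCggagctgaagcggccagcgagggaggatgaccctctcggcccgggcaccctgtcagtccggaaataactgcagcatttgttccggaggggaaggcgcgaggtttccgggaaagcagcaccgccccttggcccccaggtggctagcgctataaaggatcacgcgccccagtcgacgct
VCAM1: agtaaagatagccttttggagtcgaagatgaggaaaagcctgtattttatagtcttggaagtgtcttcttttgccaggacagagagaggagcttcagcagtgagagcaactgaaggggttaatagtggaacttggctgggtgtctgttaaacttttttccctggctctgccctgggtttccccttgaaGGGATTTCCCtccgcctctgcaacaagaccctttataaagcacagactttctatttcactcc

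The ICAM1 window held GGAAATTCC, a match to GGAANTTCC, at -186 to -178 relative to the start, and no κB consensus. The VCAM1 window held GGGATTTCCC, a match to the κB consensus, at -62 to -53. Of the 3 windows of ICAM3, 1 held a κB consensus match, and the windows of CD44 and CD58 held neither motif. Of all 35116 windows, 11.27% held the κB consensus and 0.97% held GGAANTTCC.

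Values are log2 expression after RMA normalization. The experiments were normalized apart, since array medians were 6.94 to 6.99 in the first and 7.39 to 7.5 in the second, so levels are compared only within an experiment. An array reads a lysate of many cells, so fewer expressing cells and less RNA per cell cannot be told apart. A cluster was called when its limma adjusted p was below 0.05 and it differed by at least 10%. NFKB1 averaged 9.28 ± 0.33 in p50/RelA KD cells and 11.19 ± 0.1 in control 1 cells, and RELA averaged 8.46 ± 0.24 in p50/RelA KD cells and 9.85 ± 0.04 in control 1 cells (SD, n = 6 arrays each). NFKB2 averaged 8.95 ± 0.13 in p52/RelB KD cells and 10.29 ± 0.11 in control 2 cells, and RELB averaged 8.78 ± 0.11 in p52/RelB KD cells and 9.07 ± 0.06 in control 2 cells (SD, n = 6 arrays each). The labelled targets were thus lower in their own KD on every array, and RELB was the least reduced of the 4, at 82% of its control. These are RNA values, while the study followed depletion of the subunit proteins by western blot. Targets of the other KD also moved. NFKB2 was called lower in p50/RelA KD cells (-0.19, limma adjusted p = 0.0457), and NFKB1 higher in p52/RelB KD cells (0.15, limma adjusted p = 0.0374). The test named in the methods called neither. RELB in p50/RelA KD cells and RELA in p52/RelB KD cells were not called. All 8 genes of a marker list of Hodgkin cell lines, TNFRSF8 (CD30), CCL17 and CCL22 among them, passed the filter on low values in both experiments. In the first and second experiment 14672 and 16101 of all 19460 single-symbol clusters passed it, so passing does not tell cell types apart. Of 8 genes listed for T and NK cells 2 and 6 passed, and of 5 for myeloid cells 2 and 3. Over control 1 arrays the Hodgkin list averaged 10.59 to 10.72, and the T and NK cell list 5.51 to 5.78. The array of p52/RelB KD with sequence 2 in replicate 3 stood furthest from its arm (mean correlation 0.986 with the other 5), and results that rest on it are given without it.

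A single gene of the 8 was called in p50/RelA KD cells, ICAM1, which was lower. In p52/RelB KD cells 4 of the 8 were called: VCAM1 was lower, and CDH1, CD44 and PECAM1 were higher. These counts stand against a background of 0.825% of 14672 tested clusters called lower and 0.245% called higher in p50/RelA KD cells, and of 5.75% of 16101 called lower and 3.93% called higher in p52/RelB KD cells. ICAM2, ICAM3 and CD58 were called in neither comparison. No gene of the 8 was called in both.

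**Figure D1:**
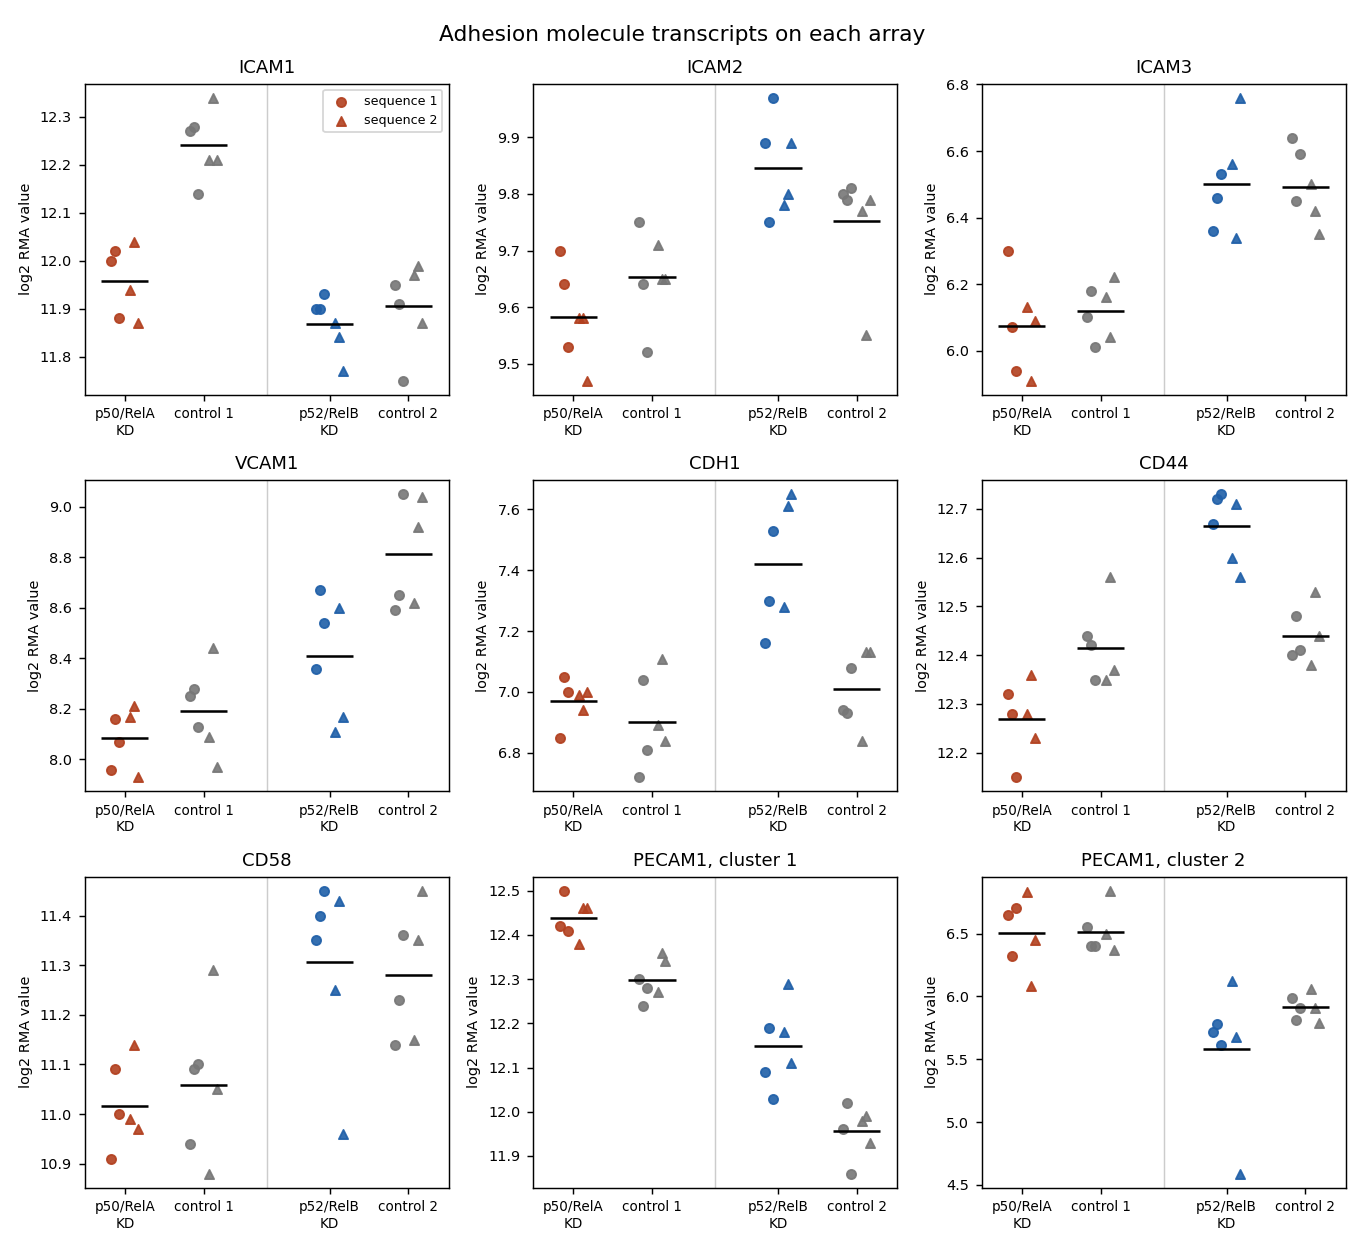
The log2 RMA value of each of the 9 clusters on every array, KD arms left of their own controls, where a circle is an array of siRNA sequence 1, a triangle is one of sequence 2 and a bar is the group mean; the vertical line parts the experiments, whose levels are not comparable. ICAM1 lies between 11.87 and 12.04 in p50/RelA KD and between 12.14 and 12.34 in control 1, while CDH1 lies between 7.16 and 7.65 in p52/RelB KD and between 6.84 and 7.13 in control 2.

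ICAM1 was the only member called in p50/RelA KD cells, where it was lower. The 6 p50/RelA KD arrays had a lowest value of 11.87, a median of 11.97 and a highest of 12.04, and the 6 control 1 arrays had a lowest value of 12.14, a median of 12.24 and a highest of 12.34. Every KD array lay below every control array, which was so for 0.736% of the clusters tested. The difference was -0.29 (SE 0.0323, 95% interval -0.36 to -0.22), or 82% of control, with a limma adjusted p of 0.00074. It was -0.27, -0.28 and -0.3 in replicates 1, 2 and 3, and -0.27 with sequence 1 and -0.31 with sequence 2, so replicates and sequences lay close together. Without replicate 1 the difference was -0.29, with a limma adjusted p of 0.0511, and with either sequence alone it was likewise no longer called.

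In the second experiment ICAM1 did not pass the test. The lowest, median and highest values were 11.77, 11.88 and 11.93 in p52/RelB KD cells and 11.75, 11.93 and 11.99 in control 2 cells. The ranges overlapped almost fully. The difference was -0.04 (SE 0.0423, 95% interval -0.13 to 0.05, limma adjusted p = 0.616). It was -0.08, -0.08 and 0.04 over the replicates, and 0.04 with sequence 1 against -0.12 with sequence 2. The p52/RelB KD effect minus the p50/RelA KD effect was 0.25 (SE 0.0497), and this difference passed the test across the 24 arrays (limma adjusted p = 0.00541, with 4.35% of 14647 clusters called). Leaving out any 1 of the 3 replicates of both experiments took the adjusted p of this difference to between 0.0544 and 0.0907.

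ICAM2 and ICAM3 were called in neither comparison. ICAM2, which is expressed on leukocytes and endothelium, ranged from 9.47 to 9.7 in p50/RelA KD cells and from 9.52 to 9.75 in control 1 cells, with a difference of -0.07 (SE 0.0372, limma adjusted p = 0.575). It ranged from 9.75 to 9.97 in p52/RelB KD cells and from 9.55 to 9.81 in control 2 cells, with a difference of 0.1 (SE 0.0445, limma adjusted p = 0.228). ICAM3, found mainly on resting leukocytes, lay near the filter of 6. It averaged 6.07 ± 0.14 in p50/RelA KD cells and 6.12 ± 0.08 in control 1 cells, and 6.5 ± 0.15 in p52/RelB KD cells and 6.49 ± 0.11 in control 2 cells (SD, n = 6 arrays each). Its differences were -0.04 and 0.01, with 95% intervals of -0.17 to 0.08 and -0.14 to 0.16.

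VCAM1 was the member with the largest fall, in p52/RelB KD cells. The study itself counts VCAM1 among established NF-κB targets that both kinds of subunit bound but that did not respond to its knockdowns. The p52/RelB KD arrays read 8.36, 8.67 and 8.54 with sequence 1 and 8.11, 8.6 and 8.17 with sequence 2 in replicates 1, 2 and 3. The control 2 arrays read 8.59, 8.65 and 9.05 with sequence 1 and 8.62, 8.92 and 9.04 with sequence 2 in the same order. Each KD array but 1 lay below the control array of the same replicate and sequence number, the exception being sequence 1 in replicate 2. The groups overlapped between 8.59 and 8.67. The difference was -0.41 (SE 0.0942, 95% interval -0.61 to -0.2), or 75.5% of control, with a limma adjusted p of 0.017.

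The size of the VCAM1 fall varied among replicates and sequences. It was -0.37, -0.15 and -0.69 in replicates 1, 2 and 3, and -0.24 with sequence 1 against -0.57 with sequence 2. Replicate 3, which was scanned apart from replicates 1 and 2, had the largest fall, and without it the difference was -0.26 (limma adjusted p = 0.042). Without the array of sequence 2 in replicate 3 alone it was -0.32 (limma adjusted p = 0.00438), and without replicate 1 it was -0.42 and no longer called (limma adjusted p = 0.162). In a fit with no replicate block VCAM1 just missed the threshold, at a limma adjusted p of 0.0505. It was also not called with the sequences averaged within each replicate (limma adjusted p = 0.0818), with sequence 1 or sequence 2 alone (limma adjusted p = 0.151 and 0.216) or by the test named in the methods (adjusted p = 0.117).

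The lowest, median and highest VCAM1 values in p50/RelA KD cells were 7.93, 8.11 and 8.21, against 7.97, 8.19 and 8.44 in control 1 cells. The groups overlapped, and the difference was -0.11 (SE 0.0536, 95% interval -0.23 to 0.0028, limma adjusted p = 0.494). It was below 0 in 3 of 3 replicates, at -0.11, -0.18 and -0.05. The p52/RelB KD effect minus the p50/RelA KD effect was -0.29 (SE 0.1137) and did not pass the test (limma adjusted p = 0.173), so the VCAM1 effects of the KDs were not shown to differ.

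**Figure D2:**
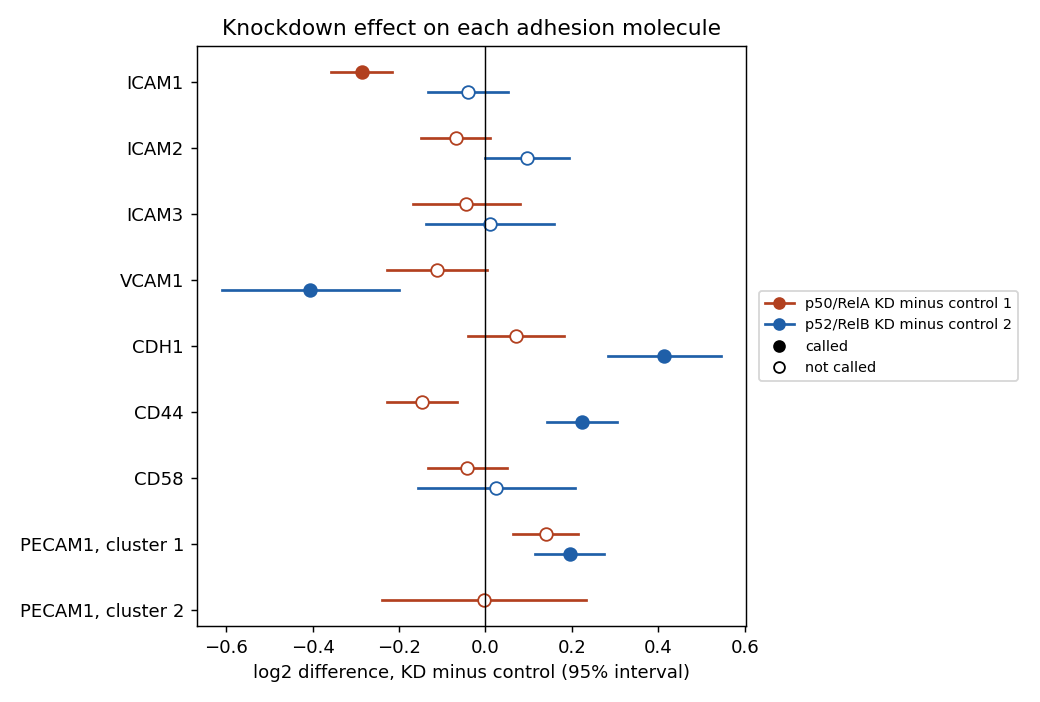
The log2 difference, KD minus control, of each cluster with its 95% interval from limma, p50/RelA KD above p52/RelB KD, filled where called. Of the 5 filled points, 2 are below 0 (ICAM1 at -0.29 in p50/RelA KD and VCAM1 at -0.41 in p52/RelB KD); PECAM1 cluster 2 has no second point because it failed the filter on low values there.

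CDH1, which encodes E-cadherin, was higher in p52/RelB KD cells. Its signal was low, at 7.42 ± 0.2 in p52/RelB KD cells and 7.01 ± 0.12 in control 2 cells (SD, n = 6 arrays each). Array medians over all clusters were 7.39 to 7.5 in this experiment, so CDH1 expression above background was not shown. The p52/RelB KD arrays had a lowest value of 7.16, a median of 7.41 and a highest of 7.65, and the control 2 arrays had a lowest value of 6.84, a median of 7.01 and a highest of 7.13. Every KD array lay above every control array, as was so for 2.1% of the clusters tested (KD wholly below control in 3.17%). The difference was 0.41 (SE 0.0602, 95% interval 0.28 to 0.55), or 133.2% of control, with a limma adjusted p of 0.00101. It was 0.33, 0.43 and 0.48 in replicates 1, 2 and 3, and 0.35 with sequence 1 and 0.48 with sequence 2. The call held without each replicate in turn, and without the array of sequence 2 in replicate 3 (0.39, limma adjusted p = 0.000439), and was lost with sequence 2 alone, where the difference was 0.48 (limma adjusted p = 0.13).

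CDH1 in p50/RelA KD cells ranged from 6.85 to 7.05, within the 6.72 to 7.11 of control 1 cells. The difference was 0.07 (SE 0.0515, 95% interval -0.04 to 0.18, limma adjusted p = 0.742), and it was 0.12, -0.08 and 0.18 over the replicates. The p52/RelB KD effect exceeded the p50/RelA KD effect by 0.34 (SE 0.0812, limma adjusted p = 0.0164). Without replicate 1, 2 or 3 this difference of effects was 0.41, 0.26 and 0.37, with adjusted p of 0.0904, 0.131 and 0.0906 from limma, and with no replicate block its adjusted p was 0.128. None of the 5 clusters tested for epithelial markers (KRT8, KRT18, KRT19 and CLDN4) was called in p52/RelB KD cells by limma or the test named in the methods. Of these 5, 0 had an unadjusted p below 0.05, beside 3668 of all 16101 clusters, and EPCAM did not pass the filter. The mean log2 value of that list ran from 6.78 to 7 over the p52/RelB KD arrays and from 6.71 to 6.93 over the control 2 arrays.

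CD44 was higher in p52/RelB KD cells, and its effects in the KDs differed the most of the members. In p52/RelB KD cells its lowest, median and highest values were 12.56, 12.69 and 12.73, against 12.38, 12.43 and 12.53 in control 2 cells, with no overlap. KD arrays lay wholly above control arrays for 2.1% of the clusters tested. The difference was 0.22 (SE 0.0371, limma adjusted p = 0.00238), or 116.7% of control, and it was 0.24, 0.21 and 0.22 over the replicates and 0.28 and 0.17 with sequences 1 and 2. The call was lost without replicate 1 (0.21, limma adjusted p = 0.0809) and without replicate 2 (0.23, limma adjusted p = 0.0716), and held without the array of sequence 2 in replicate 3 (0.25, limma adjusted p = 9.87e-05). It was also lost with the sequences averaged (limma adjusted p = 0.0532) and with sequence 2 alone (limma adjusted p = 0.541). In p50/RelA KD cells the values were 12.15, 12.28 and 12.36, against 12.35, 12.4 and 12.56 in control 1 cells, which overlap only between 12.35 and 12.36. There the difference was -0.15 (SE 0.0379, 95% interval -0.23 to -0.06), below 0 in 3 of 3 replicates, and it did not pass the test (limma adjusted p = 0.0962). The difference between the effects, 0.37 (SE 0.0498, 95% interval 0.27 to 0.47), passed it with a limma adjusted p of 0.000107 and was called without each replicate in turn. The cluster sums probes of the whole gene, so the CD44 splice variants were not told apart.

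CD58, the ligand of CD2, was called in neither comparison. It ranged from 10.91 to 11.14 in p50/RelA KD cells and from 10.88 to 11.29 in control 1 cells, with a difference of -0.04 (SE 0.0423, limma adjusted p = 0.844). In the second experiment it ranged from 10.96 to 11.45 in p52/RelB KD cells and from 11.14 to 11.45 in control 2 cells, with a difference of 0.03 (SE 0.0831, limma adjusted p = 0.883). The lowest KD array was sequence 2 in replicate 3. Without replicate 3 the difference was 0.14 (limma adjusted p = 0.0423) and was called, where KD minus control was -0.2 in replicate 3. Without the array of sequence 2 in replicate 3 alone it was 0.12 (limma adjusted p = 0.0399), under the 10% a call needs, so the CD58 value rests on that 1 array.

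PECAM1 had its main signal in cluster 8017599. In p52/RelB KD cells that cluster ranged from 12.03 to 12.29, wholly above the 11.86 to 12.02 of control 2 cells, as was so for 2.1% of the clusters tested. The difference was 0.19 (SE 0.0365, limma adjusted p = 0.00498), or 114.4% of control, and it was 0.17, 0.24 and 0.18 over the replicates and 0.16 and 0.23 with sequences 1 and 2. It was no longer called without replicate 1 (0.21, limma adjusted p = 0.077) or without replicate 2 (0.17, limma adjusted p = 0.134), and was called without the array of sequence 2 in replicate 3 (0.19, limma adjusted p = 0.00192). The call was also lost with the sequences averaged (limma adjusted p = 0.0857) and with sequence 1 or sequence 2 alone (limma adjusted p = 0.0898 and 0.448). In p50/RelA KD cells it ranged from 12.38 to 12.5, wholly above the 12.24 to 12.36 of control 1 cells, as was so for 0.375% of the clusters tested. That difference, 0.14 (SE 0.0347, 95% interval 0.06 to 0.21), did not pass the test (limma adjusted p = 0.081). The effects differed by 0.06 (SE 0.0462, limma adjusted p = 0.623).

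The dim PECAM1 cluster, 8017619, averaged 6.51 ± 0.28 in p50/RelA KD cells and 6.51 ± 0.18 in control 1 cells (SD, n = 6 arrays each). In the second experiment 5 of 6 arrays in each arm were below 6, so it was not tested there. Its values ran from 4.59 to 6.12 in p52/RelB KD cells and from 5.79 to 6.06 in control 2 cells, with means of 5.58 and 5.91. KD minus control was -0.1, -0.13 and -0.75 in replicates 1, 2 and 3, opposite in direction to the bright cluster. The dim cluster thus did not share the rise called for PECAM1, at values under the filter. Its difference in p50/RelA KD cells was -0.0035 (SE 0.1093), where the bright cluster had 0.14. Endothelial markers were checked because PECAM1, VCAM1 and ICAM2 are also endothelial genes. Of 5 markers, CDH5, KDR and VWF passed the filter in the second experiment, and none was called by limma or the test named in the methods. Of those tested, 0 had an unadjusted p below 0.05, beside 3668 of all 16101 clusters. The mean of the list ran from 5.99 to 6.34 over p52/RelB KD arrays and from 6.08 to 6.14 over control 2 arrays.

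**Figure D3:**
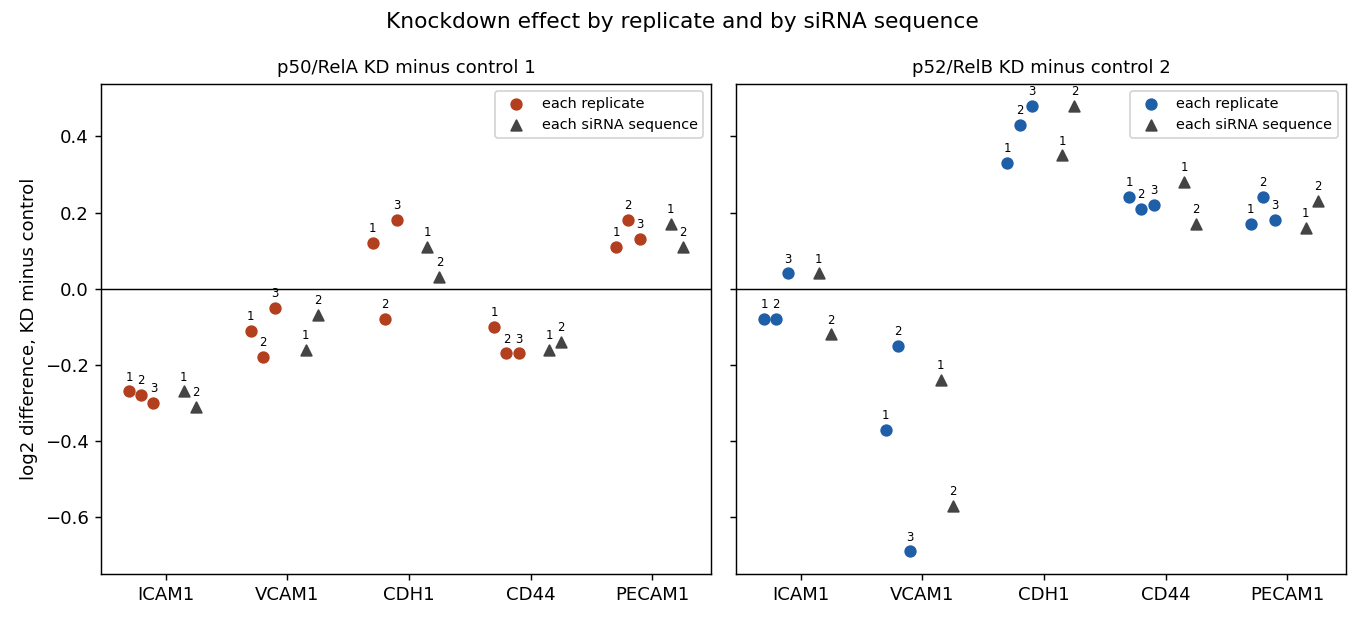
KD minus control, as a log2 difference, within each replicate (circles, numbered 1 to 3) and for each siRNA sequence (triangles, numbered 1 and 2), for the 5 genes called in either comparison, p50/RelA KD at left and p52/RelB KD at right. ICAM1 at left spans -0.3 to -0.27 over the replicates, while VCAM1 at right spans -0.69 to -0.15.

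The siRNA sequences were also set against each other within each arm, with 3 arrays each. No cluster was called in any of the 4 arms (0% each) by limma, while 514, 333, 1536 and 160 clusters had an unadjusted p below 0.05 in p50/RelA KD, control 1, p52/RelB KD and control 2 cells. Sequence 2 minus sequence 1 in p52/RelB KD cells was -0.23 for VCAM1 (95% interval -0.5 to 0.05), 0.18 for CDH1 (0.03 to 0.34), -0.19 for CD58 (-0.44 to 0.06), 0.11 for ICAM3 (-0.09 to 0.31), 0.09 for PECAM1 (-0.02 to 0.2), -0.09 for CD44 (-0.2 to 0.03) and -0.08 for ICAM1 (-0.21 to 0.04), with limma adjusted p of 0.506 to 0.575. Among the control arrays it was -0.14 for ICAM3 in control 2 cells (-0.34 to 0.06) and 0.12 for the dim PECAM1 cluster in control 1 cells (-0.24 to 0.48). For ICAM1 in p50/RelA KD cells the difference between sequences was -0.02 (95% interval -0.13 to 0.09). Differences of the size of a KD effect are inside several of these intervals, so 3 arrays against 3 did not show the sequences to act alike.

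Arrays were next compared across members after the mean of the 4 arrays of the same experiment and replicate was subtracted. Over the 24 arrays, CDH1 and PECAM1 correlated at r = 0.764, CDH1 and VCAM1 at -0.691, PECAM1 and VCAM1 at -0.713, and ICAM1 and PECAM1 at -0.591. ICAM1 and VCAM1 correlated at 0.305. These points share the KD contrast itself and also hold the remaining differences between arrays, so the coefficients mix both and carry no test. CD58 and ICAM3, called in neither KD, correlated at -0.607. Among 14646 clusters, the closest to ICAM1 were NFKBIA, which encodes the inhibitor IκBα (r = 0.951), TNFRSF9, which encodes CD137 (0.929), and RELA, a target of the siRNA (0.898). NFKBIA averaged 12.09 ± 0.08 in p50/RelA KD cells and 12.48 ± 0.06 in control 1 cells, and 12.47 ± 0.07 in p52/RelB KD cells and 12.43 ± 0.06 in control 2 cells (SD, n = 6 arrays each).

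The closest to VCAM1 were TIFA, an adaptor of NF-κB signaling (r = 0.936), ANAPC16, a subunit of the anaphase-promoting complex (0.932), and SLC27A2, a fatty acid transporter and acyl-CoA synthetase (0.93). TIFA averaged 9.38 ± 0.22 in p52/RelB KD cells and 9.84 ± 0.1 in control 2 cells (SD, n = 6 arrays each). The closest to CDH1 were CD27, a receptor of the TNF family (r = 0.916), RNU6ATAC, a spliceosomal RNA with 2 clusters on the array (0.895), and MAP3K14, which encodes the kinase NIK (0.895). CD27 averaged 11.1 ± 0.14 in p52/RelB KD cells and 10.68 ± 0.08 in control 2 cells, and MAP3K14 averaged 9.35 ± 0.07 in p52/RelB KD cells and 8.9 ± 0.09 in control 2 cells (SD, n = 6 arrays each).

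Genes that work with these molecules were described from lists, whose counts stand beside these shares of all tested clusters. By limma 0.825% were called lower and 0.245% higher in p50/RelA KD cells, and 5.75% lower and 3.93% higher in p52/RelB KD cells. An unadjusted limma p below 0.05 was found for 1545 of 14672 clusters in p50/RelA KD cells and 3668 of 16101 in p52/RelB KD cells. The test named in the methods called 30 and 725. Of 16 tested integrin and other partner clusters, 0 were called in p50/RelA KD cells by limma (2 at an unadjusted p below 0.05, 0 by the test named in the methods), and of 18 in p52/RelB KD cells 1 was called, higher, by limma (3 at an unadjusted p below 0.05) and 0 by the test named in the methods. The called gene was ITGA4, the alpha 4 integrin chain that binds VCAM1, which ranged from 10.06 to 10.46 in p52/RelB KD cells and from 9.98 to 10.12 in control 2 cells (difference 0.23, SE 0.0631, limma adjusted p = 0.0392). Its groups overlapped, and the list's median difference was 0.031, beside 0.019 over all clusters. ITGB2, the beta chain of LFA-1, differed by -0.0016 in p50/RelA KD cells and by 0.02 in p52/RelB KD cells, and ITGAL, its alpha chain, passed the filter only in the second experiment (0.09, limma adjusted p = 0.444).

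None of 6 cadherin partners, the catenins among them, was called in either comparison by limma or the test named in the methods. At an unadjusted p below 0.05 there were 0 in p50/RelA KD cells and 1 in p52/RelB KD cells. Over all clusters there were 1545 of 14672 and 3668 of 16101. CTNNB1 (beta-catenin) differed by 0.07 in p50/RelA KD cells and by 0.01 in p52/RelB KD cells. Of 7 clusters for transcriptional repressors of CDH1, 0 were called in p50/RelA KD cells by limma or the test named in the methods (0 at an unadjusted p below 0.05). In p52/RelB KD cells, where 5.75% of all clusters were called lower, 2 were lower, 1 of them also by the test named in the methods. These were TCF3, the gene of the E2A proteins (-0.23, SE 0.0425, limma adjusted p = 0.00414), and ZEB1, a zinc finger repressor (-0.18, SE 0.0447, limma adjusted p = 0.0247). TCF3 ranged from 10.24 to 10.38 in p52/RelB KD cells and from 10.41 to 10.7 in control 2 cells, with no overlap, and ZEB1 ranged from 8.74 to 9.05 in p52/RelB KD cells and from 9.03 to 9.16 in control 2 cells. KD arrays lay wholly below control arrays for 3.17% of all clusters tested. SNAI1, another repressor, had a difference of 0.22 in the other direction and did not pass the test (limma adjusted p = 0.0643).

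Of 9 linkers between membrane and cytoskeleton, 0 were called in p50/RelA KD cells by limma or the test named in the methods. At an unadjusted p below 0.05 there were 4, beside 1545 of 14672 over all clusters. In p52/RelB KD cells 3 were higher and 1 was lower by limma, beside 3.93% and 5.75% of all clusters. The test named in the methods called 0 of them. VCL (vinculin) differed by 0.23, NF2 (merlin, which binds CD44) by 0.19 and TLN2 (talin 2) by 0.14, with limma adjusted p of 0.00222, 0.021 and 0.0382. TLN1 (talin 1, which links integrins to actin) differed by -0.27 (SE 0.0403, limma adjusted p = 0.00128). TLN1 ranged from 10.52 to 10.91 in p52/RelB KD cells and from 10.89 to 11.16 in control 2 cells, so the groups met at their edges.

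Other adhesion receptors gave 1 lower of 24 clusters in p50/RelA KD cells and 3 lower of 29 in p52/RelB KD cells, with 0 higher in either, by limma. Over all clusters 0.825% and 5.75% were called lower, so the list counts alone show little. The test named in the methods called 0 of these receptors in p50/RelA KD cells and 2 in p52/RelB KD cells, NECTIN1 and ALCAM. NECTIN1, an immunoglobulin-like receptor of adherens junctions, was the gene called in both comparisons by limma. It ranged from 7.86 to 8.02 in p50/RelA KD cells and from 8 to 8.22 in control 1 cells (-0.22, limma adjusted p = 0.0368), and from 7.64 to 8.07 in p52/RelB KD cells and from 8.21 to 8.47 in control 2 cells (-0.46, limma adjusted p = 5.54e-05). ALCAM, the ligand of CD6, ranged from 9.84 to 10.19 in p52/RelB KD cells and from 10.59 to 10.85 in control 2 cells (-0.67, limma adjusted p = 4.56e-05). SLAMF1, a self-binding receptor of lymphocytes, had a difference of -0.21 (limma adjusted p = 0.0105). The median difference of the list in p52/RelB KD cells was 0.073, above that of all clusters, although its called members were lower.

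**Figure D4:**
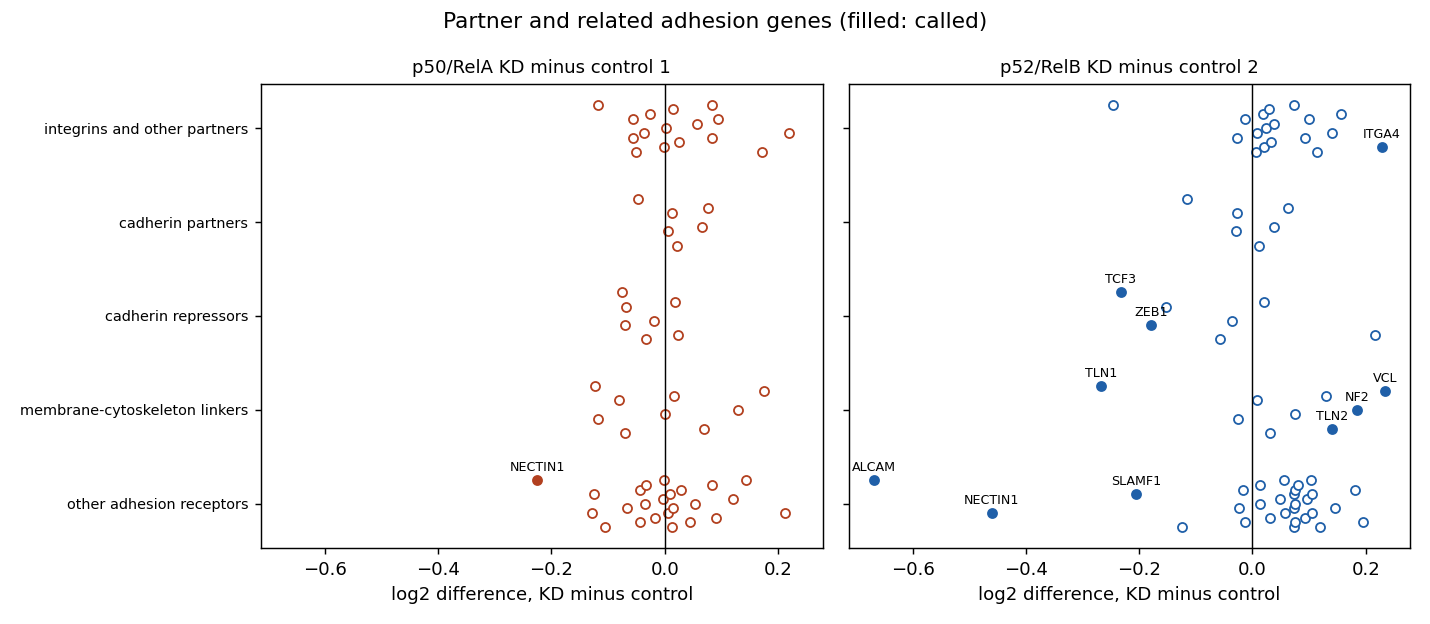
The log2 difference, KD minus control, of every tested cluster in 5 lists of partner and related genes, p50/RelA KD at left and p52/RelB KD at right; filled points with names are called. At left NECTIN1 alone is filled, at -0.22, and at right 10 points are filled, from ALCAM at -0.67 to VCL at 0.23.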

How the data were processed

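The authors deposited log2 RMA values of Affymetrix Human Gene 1.0 ST arrays, made per the study's methods with the oligo package, which corrects background, quantile-normalizes arrays and summarizes probes. No source used here gives its version. RMA compresses large differences and gives no detection call. The table held 24 arrays and 0 missing values. Clusters took their symbol from GEO's platform annotation, 19429 updated through RefSeq names and 31 kept; 1754 with several symbols and 12083 not listed were left out. Promoter sequences are from RefSeq, GRCh38.p14.

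Each KD was set against its own control with limma 3.58.1 (R 4.3.3). The model held the arm and a replicate block, and arrays of both sequences were pooled. Tested were single-symbol clusters not below 6 in 50% or more of the 12 arrays; called meant a Benjamini-Hochberg adjusted p below 0.05 over all of them and a difference of at least 10% (0.14, log2). Differences are KD minus control. The difference between the KD effects was fitted over all 24 arrays, blocked by replicate within experiment. The fit was tested on simulated data. The study's methods used a t-test after adjusting for covariates that they do not name; replicates still differ in the deposited values, so the test named in the methods was run here without that adjustment.

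Replicate numbers were checked for pairing. Deviations of KD and control means with the same number correlated at 0.448, 0.195 and 0.251 (experiment 1) and 0.574, 0.268 and 0.377 (experiment 2), each over 0.1, so replicates were treated as paired. Scan batches were the replicates in experiment 1; in experiment 2 replicate 3 was scanned apart. Per the study's methods, arrays sharing a replicate number received different siRNAs and made up 1 biological replicate. No source used here says whether those arrays came from 1 starting culture, and p-values therefore describe variation between arrays. Precision is limited by array number, with a median standard error of 0.0476 in experiment 1 and 0.0536 in experiment 2.

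The members and gene lists were chosen with earlier results of these data known. All members were named, and list genes when called, up to 4 per list and comparison. The 3 clusters most like ICAM1, VCAM1 and CDH1 were named by Pearson correlation. Alternatives left out replicates, arrays or 1 sequence, averaged the sequences, or changed the block, filter, scaling or test.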

Additional observations from a re-analysis of the deposited data

Results flagged for a closer look

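For 3 members, beside 4.35% of 14647 clusters, the KD effects differed between the experiments in the test of the difference itself (p52/RelB KD effect minus p50/RelA KD effect). For CD44 it was 0.3702 (limma adjusted p = 0.000107), from 0.22 in p52/RelB KD cells and -0.15 in p50/RelA KD cells. For CDH1 it was 0.3439 (limma adjusted p = 0.0164), from 0.41 in p52/RelB KD cells and 0.07 in p50/RelA KD cells. For ICAM1 it was 0.2464 (limma adjusted p = 0.00541), from -0.04 in p52/RelB KD cells and -0.29 in p50/RelA KD cells. The CD44 call held without each replicate in turn, while those of CDH1 and ICAM1 were lost whichever replicate was left out. The experiments were run and scanned apart, so an effect of the experiment on the size of a KD effect and that of the targeted dimer cannot be told apart.

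In 2 of 36 groups of 6 arrays, 1 array lay far from the other 5; chance gives about 1 in 20. ICAM2 in control 2 cells was 9.55 in sequence 2 of replicate 2, where the nearest array was at 9.77. The dim PECAM1 cluster in p52/RelB KD cells was 4.59 in sequence 2 of replicate 3, where the nearest array was at 5.61.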

How the results depend on the processing

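Over 26 alternatives of each KD comparison, ICAM1 in p50/RelA KD cells was called in 23. In p52/RelB KD cells CDH1 was called in 25, CD44 in 22, PECAM1 in 21 and VCAM1 in 20. Not all of these alternatives could lose a call. Dropping the minimum difference keeps every call. In p50/RelA KD cells scan batches were the replicates, so blocking by scan batch repeated the main fit. A further 12 left out a single array, and these members were called in all 12. Of 3 fits without a replicate, CDH1 was called in 3, ICAM1 and VCAM1 in 2, and CD44 and PECAM1 in 1. Of 9 alternatives of the difference between the effects, CD44 was called in 8, ICAM1 in 4 and CDH1 in 3. These calls kept their direction throughout.

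Leaving out a replicate or an array (each of 12 arrays in the KD comparisons, 2 chosen arrays for the difference) gave 18 to 193 clusters called in p50/RelA KD cells (157 in all arrays), 443 to 2309 in p52/RelB KD cells (1559) and 168 to 936 for the difference (637). The 193, 2309 and 936 came from leaving out control 1 sequence 2 replicate 2 in the first and p52/RelB KD sequence 2 replicate 3 in the others. Called member clusters numbered 0 to 1 (1 with all arrays), 1 to 5 (4) and 1 to 3 (3) in the same order. With no replicate block 59, 880 and 250 clusters were called, and 1, 3 and 2 member clusters.

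With the siRNA sequences averaged, 45 clusters were called in p50/RelA KD cells and 632 in p52/RelB KD cells, CDH1 being the 1 member called in the second. With sequence 1 alone the counts were 37, 1179 and, for the difference, 354, with 0, 2 and 1 member clusters. With sequence 2 alone they were 3, 5 and 3, with 0 member clusters in each; both fits use the same number of arrays, and the cause was not tested. The methods' t-test, run here on the deposited values without the covariate adjustment that the methods describe, gave 30 and 725 clusters after Benjamini-Hochberg adjustment, and no filter on low values gave 103 in p50/RelA KD cells. A fit of both experiments together called 3 members in p50/RelA KD cells, adding CD44 (limma adjusted p = 0.0394) and PECAM1 (limma adjusted p = 0.0339). That fit called 216 of 14672 clusters, beside 157 in the main fit.

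Changes of sign were seen only in differences that were not called with all arrays. In p50/RelA KD cells ICAM3 was 0.0076 with sequence 1 alone, and the dim PECAM1 cluster was 0.1059 with sequence 1 alone, 0.0019 after further quantile normalization, 0.0037 after median centring and -0.1144 to 0.2043 without a replicate or array. In p52/RelB KD cells ICAM1 was 0.0384 with sequence 1 alone and CD58 was -0.1081 with sequence 2 alone. ICAM3 there was -0.1111 with sequence 1 alone, -0.0068 after quantile normalization and -0.0017 after centring. Without a replicate or array CD58 was -0.0377 to 0.1386 and ICAM3 was -0.0711 to 0.0693. The difference between the effects was -0.0699 for CD58 with sequence 2 alone, and -0.1186 for ICAM3 and -0.0081 for PECAM1 with sequence 1 alone. Without a replicate or array it was -0.0003 to 0.157 for CD58 and -0.0544 to 0.1783 for ICAM3. The cause was not tested in any of these. The number of arrays limits the precision, and RMA values come with no detection call, so expression above background was not tested for any cluster.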
